A study of Homo sapiens with 6 samples.

Results

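The genes described here were the CXC chemokines CXCL1, CXCL2, CXCL3, CXCL5, CXCL8 and CXCL16, the CC chemokine CCL20, and the receptors CXCR1, CXCR2 and CMKLR1. These 10 genes of the 58735 in the count table were taken by name, and they had been chosen with their counts in these libraries already known. Their levels and fold changes are therefore given as a description. The fit across all genes included them, and its calls on them are counted beside the share of all genes called, and support nothing. RNA sequencing was done on a human colorectal cancer line that the sample labels call sw480, with 3 libraries labelled as CNOT7 control and 3 labelled as CNOT7 knockdown, both without treatment. CNOT7 is a catalytic subunit of the CCR4-NOT complex, which shortens the poly(A) tails of mRNAs. The study made its stable knockdown lines with a lentiviral short hairpin vector carrying copGFP and puromycin resistance. The vector of the control line, and which hairpin the knockdown libraries carried, are not given in the sources used here. The study's text places this sequencing in HCT116, another colorectal cancer line, so the labelled line and the described line differ. Nothing in the sources says whether the 3 libraries of a group came from separate cultures, so the p-values given below for other genes measure only the spread between these libraries.

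Library totals ran from 23788451 to 29104872 counts. CNOT7 itself stood at 178.7 ± 11.3 CPM (read counts scaled to library size, TMM-normalised, mean ± SD, n = 3) in control and 43.1 ± 4.31 CPM in knockdown libraries, a log2 fold change of -2.05 (SE 0.0734). Of 12 colorectal epithelial markers 8 were expressed well enough to be tested, among them EPCAM, KRT8, KRT18, KRT19 and CDX2, while KRT20, CEACAM5 and CDX1 were at or near 0. Of 12 leukocyte markers 3 were tested and 3 had no count in any library, and the pan-leukocyte gene PTPRC had 0 counts in 5 libraries and 4 counts in knockdown library 3. The summed level of the leukocyte list was 3.53 to 5.15 CPM in control and 5.83 to 6.38 CPM in knockdown libraries. Within it ITGAM, an integrin gene of myeloid cells, was higher (log2 fold change 0.93, adjusted p = 0.012, edgeR). Other myeloid genes of the list did not show this. CD14 did not pass (0.30, adjusted p = 0.311, edgeR), and LYZ was not tested. MPO, FCGR3B and AIF1 had no count, and CSF3R, CD68 and TYROBP had at most 2 counts in any library. The summed fibroblast list was 9.07 to 10.9 and 10.4 to 11.95 CPM, and the endothelial list 1.88 to 2.37 and 3.06 to 3.70 CPM, in control and knockdown libraries.

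Chemokines are small secreted proteins that guide cells through G-protein-coupled receptors. CXCL1, CXCL2, CXCL3, CXCL5 and CXCL8 carry the glutamate-leucine-arginine (ELR) motif that marks ligands of CXCR2, and CXCL8 also binds CXCR1 strongly. These ligands recruit neutrophils, their genes are well-known targets of the transcription factor NF-κB, and their short-lived mRNAs hold AU-rich elements. CXCL16 is made as a membrane-bound protein that binds CXCR6, CCL20 binds CCR6, and CMKLR1 is a receptor for chemerin, the product of RARRES2.

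In the knockdown libraries CXCL1, CXCL2, CXCL3 and CXCL8 were at 0.746 to 0.774 of their control level, as ratios of summed counts corrected for library size. The 3 receptor genes were higher, at 48 to 121 summed counts against 1 to 29 in the control libraries. CXCL16 and CCL20 had log2 fold changes of 0.07 and 0.38. Of the 10 genes, 9 passed the filter on low counts. Among these, 3 passed an adjusted p of 0.05 upwards (CXCR1, CXCR2 and CMKLR1), 4 downwards (CXCL1, CXCL2, CXCL3 and CXCL8) and 2 in neither direction. Over all 17574 tested genes, 13.3% passed upwards and 11.9% downwards, and since the genes were chosen on this contrast nothing is read from the difference. The groups did not overlap for 4 of the 9 upwards and 4 downwards, against 20.6% and 18.2% of all tested genes. The 4 downward calls were not equally firm. In 12 alternative fits CXCL1 kept its call, while CXCL2 lost it in 5, DESeq2 among them, CXCL3 in 4 and CXCL8 in 2.

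**Figure D1:**
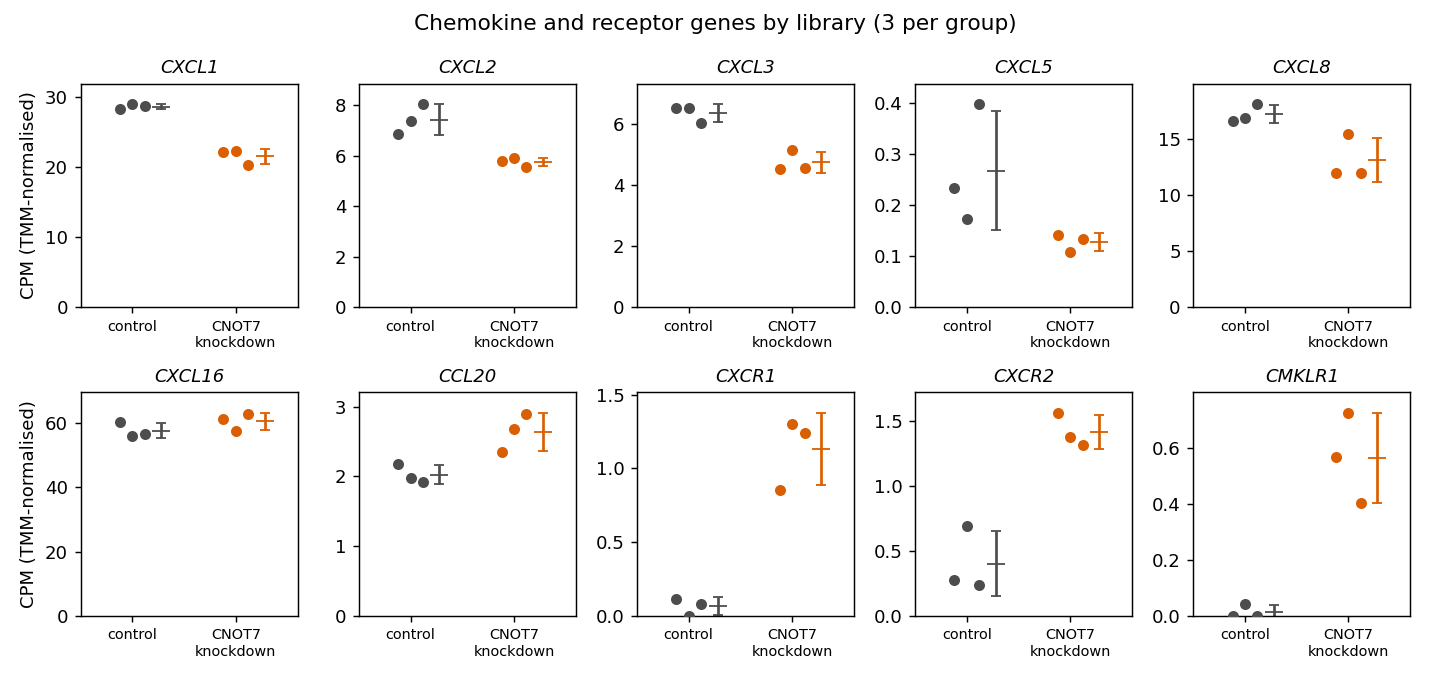
Level of each gene in CPM (y axis, from 0, its own scale in each panel) in the 3 control and 3 CNOT7 knockdown libraries. Points are libraries and bars are the mean ± SD. CXCL1 falls from 28.6 to 21.5 CPM, CXCL16 overlaps between the groups, and CXCR1, CXCR2 and CMKLR1 stay under 2 CPM in every library.

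CXCL1, CXCL2, CXCL3 and CXCL5 lie with CXCL8 in a cluster on chromosome 4 (GRCh38): CXCL8 at chr4:73740506-73743716 and CXCL1 at chr4:73869393-73871242 on the plus strand, and CXCL5 at chr4:73995642-73998779, CXCL3 at chr4:74036589-74038807 and CXCL2 at chr4:74097035-74099293 on the minus strand. Their promoters are shown because they share a word resembling the NF-κB site at nearly the same place. The stretches run from 130 to 21 bases before the RefSeq start (GRCh38.p14, gene strand, 110 bases each), with CXCL6, their neighbour, and CCL20 beside them, and capitals mark the matched word.
CXCL1: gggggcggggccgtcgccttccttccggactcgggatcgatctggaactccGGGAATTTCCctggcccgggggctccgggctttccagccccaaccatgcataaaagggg
CXCL2: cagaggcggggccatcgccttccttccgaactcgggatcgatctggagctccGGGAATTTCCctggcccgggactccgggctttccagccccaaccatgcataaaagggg
CXCL3: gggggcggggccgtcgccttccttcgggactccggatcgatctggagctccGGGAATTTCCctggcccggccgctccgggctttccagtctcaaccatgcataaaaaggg
CXCL5: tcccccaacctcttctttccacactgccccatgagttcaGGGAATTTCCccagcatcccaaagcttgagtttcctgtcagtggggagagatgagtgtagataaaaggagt
CXCL6: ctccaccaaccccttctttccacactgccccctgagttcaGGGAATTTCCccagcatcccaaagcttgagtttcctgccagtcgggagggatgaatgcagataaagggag
CXCL8: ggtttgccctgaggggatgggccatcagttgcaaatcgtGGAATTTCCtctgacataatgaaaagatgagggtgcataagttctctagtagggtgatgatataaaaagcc
CCL20: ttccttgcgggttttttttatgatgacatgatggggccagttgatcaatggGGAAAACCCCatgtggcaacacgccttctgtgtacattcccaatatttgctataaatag

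Searched on both strands of the 300 bases from 250 before to 50 after each start, the word GGAATTTCC stood once in each of the 6 clustered genes, its base nearest the 5′ end lying at -78 in CXCL1, -77 in CXCL2, -78 in CXCL3, -90 in CXCL5, -89 in CXCL6 and -91 in CXCL8. It was in 162 of 35116 RefSeq promoters (0.461%). The overlapping word GGGNNTTTCC, in 1.91% of promoters, was in all of these but CXCL8, and in CCL20 on the opposite strand at -79. TGANTCA, an AP-1-like word in 7.71% of promoters, was found only in CXCL8 among them, at -137. CXCR1, CXCR2 and CMKLR1 held none of these 3 words in this window, and CXCL16 had no promoter in the table used. Of 65 tested genes with GGAATTTCC in the promoter 8 were higher (12.3%) and 13 lower (20%), beside 13.3% and 11.9% of all tested genes. These 65 include CXCL1, CXCL2, CXCL3, CXCL8 and CXCL6, and without them 7 of 60 were higher (11.7%) and 9 lower (15%), with a median of 0.01 on the log2 scale.

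CXCL1, a neutrophil attractant also known as a melanoma growth-stimulating factor, had 726, 674 and 719 counts in control libraries 1, 2 and 3 and 623, 613 and 605 in knockdown libraries 1, 2 and 3. All 3 knockdown libraries were below all 3 controls although they were sequenced more deeply. Its level was 28.6 ± 0.366 CPM in control and 21.5 ± 1.07 CPM in knockdown libraries (SD, n = 3), a log2 fold change of -0.41 (SE 0.0763).

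CXCL2, a close paralog of CXCL1, had 176, 172 and 202 counts in control and 163, 163 and 166 in knockdown libraries. The control counts spread more than the knockdown counts, and the groups did not overlap in CPM. The level went from 7.43 ± 0.606 to 5.75 ± 0.168 CPM, a log2 fold change of -0.37 (SE 0.121).

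CXCL3, the third of these close paralogs, had 168, 152 and 151 counts in control and 128, 142 and 136 in knockdown libraries, with no overlap between the groups. Its level was 6.37 ± 0.295 CPM in control and 4.75 ± 0.342 CPM in knockdown libraries, a log2 fold change of -0.42 (SE 0.129).

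CXCL8, known also as interleukin-8 and the best studied neutrophil attractant, had 428, 393 and 455 counts in control and 337, 426 and 358 in knockdown libraries. Knockdown library 2 came nearest to the controls, and in CPM the groups stayed apart. The level was 17.2 ± 0.805 and 13.1 ± 1.99 CPM, a log2 fold change of -0.39 (SE 0.106).

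The 4 log2 fold changes lay between -0.42 and -0.37, a range smaller than the standard error of any of them. CXCL1, CXCL2 and CXCL3 are not independent measurements in full, because their coding sequences are 90.7% to 94.4% identical and 5.26% to 9.24% of the 50-base windows of their transcripts also occur in another of the 3. CXCL8 shares no such window with any gene and is 56.9% to 58.9% identical to these 3 in coding sequence.

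CXCL5, an ELR chemokine of epithelial cells, was close to the limit of detection. It had 6, 4 and 10 counts in control and 4, 3 and 4 in knockdown libraries, too few to be tested. The knockdown libraries were lower in CPM without overlap, and the ratio of summed counts, corrected for library size, was 0.476 with a 95% exact counting interval of 0.206 to 1.04. Counting intervals here cover counting error only, and this one includes a ratio of 1.

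Levels can be compared between genes only per length, here as CPM per kb of exon. In control libraries CXCL1 was the most abundant at 22.1 CPM per kb, followed by CXCL16 at 20.6, CXCL8 at 7.58, CXCL2 at 4.96, CXCL3 at 2.87 and CCL20 at 1.27. The libraries of neighbours in this order did not overlap, although for CXCL1 and CXCL16 the lowest and highest libraries were as close as 21.8 and 21.5. Far below stood CXCR2 at 0.124 and CXCL5 at 0.106 CPM per kb, whose libraries overlapped, then CXCR1 at 0.0263 and CMKLR1 at 0.00252, which overlapped as well. In knockdown libraries CXCL16 led at 21.7 CPM per kb and CXCL1 came next at 16.6, with CXCR1 at 0.455 and CXCR2 at 0.438 overlapping, then CMKLR1 at 0.0993 and CXCL5 at 0.0506.

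CXCL16, which lies on chromosome 17 (chr17:4733526-4739922, minus strand) and serves as a scavenger receptor as well as a CXCR6 ligand, had 1547, 1301 and 1420 counts in control and 1730, 1587 and 1867 in knockdown libraries. Scaled for depth, the groups overlapped, at 57.6 ± 2.28 and 60.5 ± 2.69 CPM. The log2 fold change was 0.07 (SE 0.0639). Of its exonic bases 3.04% overlap MED11, so some reads could belong to either gene. ADAM10 and ADAM17, the proteases that release CXCL16 from the membrane, had log2 fold changes of -0.09 (adjusted p = 0.313, edgeR) and 0.10 (adjusted p = 0.275, edgeR).

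The receptor of CXCL16 did move. CXCR6 had 87, 71 and 72 counts in control and 29, 37 and 48 in knockdown libraries, with every knockdown library below every control. It fell by 1.22 on the log2 scale (SE 0.211, adjusted p = 3.78e-04, edgeR quasi-likelihood test with Benjamini-Hochberg adjustment).

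CCL20, on chromosome 2 (chr2:227805739-227817564, plus strand), attracts dendritic cells and lymphocytes that carry CCR6. It had 56, 46 and 48 counts in control and 66, 74 and 86 in knockdown libraries. Every knockdown library was above every control in CPM, at 2.64 ± 0.276 against 2.02 ± 0.138, and the log2 fold change was 0.38 (SE 0.189). CCR6 had 0 counts in all 6 libraries, where the limit that a count of 0 allows is 3 counts per library.

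CXCR1 and CXCR2 lie close together on chromosome 2 and face each other, CXCR2 at chr2:218125289-218137253 on the plus strand and CXCR1 at chr2:218162845-218166995 on the minus strand. CXCR1, the receptor selective for CXCL8 and CXCL6, had 3, 0 and 2 counts in control and 24, 36 and 37 in knockdown libraries. The groups lay far apart, with every control library at 3 counts or fewer. The ratio of the summed counts, 97 over 5, corrected for library size, was 16.8 with a 95% exact counting interval of 6.95 to 52.9, and the level went from 0.0655 to 1.13 ± 0.246 CPM.

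CXCR2, which binds all ELR chemokines, had 7, 16 and 6 counts in control and 44, 38 and 39 in knockdown libraries. Control library 2 was the highest control and still below every knockdown library. The ratio of the summed counts, 121 over 29, was 3.61 with a counting interval of 2.39 to 5.62, the level went from 0.400 to 1.42 ± 0.130 CPM, and the log2 fold change was 1.83 (SE 0.363). Without control library 2 the log2 fold change was 2.44.

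CXCR1 and CXCR2 are 85% identical in coding sequence. They share 5.13% and 7.17% of their 50-base windows with each other or with the pseudogene CXCR2P1, so a small part of their reads could be split between them. CXCR2P1 itself had 4, 0 and 0 counts in control and 3, 4 and 4 in knockdown libraries. RUFY4, another gene within 200 kb, picked after its values were seen, had 0 counts in each control and 7, 1 and 12 in the knockdown libraries. Within 200 kb of CXCR2, 5 genes other than the receptors were tested and 1 passed, TMBIM1, which was higher by a log2 fold change of 0.19 (adjusted p = 0.0366, edgeR). The other 4, ARPC2 (-0.04), AC021016.2 (-0.02), AAMP (-0.12) and PNKD (-0.02), had groups that overlapped. Among all tested genes 13.3% passed upwards and 11.9% downwards.

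CMKLR1, the chemerin receptor on chromosome 12 (chr12:108288044-108339341, minus strand), had 0, 1 and 0 counts in control and 16, 20 and 12 in knockdown libraries. It was near absent in control and low in knockdown libraries, at 0.0143 and 0.565 CPM. The ratio of the summed counts, 48 over 1, was 41.5 with a counting interval of 7.11 to 1674, so the size of its rise is poorly known. Its ligand gene RARRES2 had 93, 85 and 88 counts in control and 101, 79 and 104 in knockdown libraries, a log2 fold change of -0.12 (adjusted p = 0.646, edgeR) with groups that overlapped.

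The 3 receptor genes passed the filter on low counts through the knockdown libraries, so the fact that they differed follows in part from their being tested. Among the 2859 tested genes with a mean under 1 CPM, a limit set after the values were seen, 7.73% passed the threshold upwards and 2.17% downwards. In bulk RNA a higher level in every cell and a larger number of expressing cells cannot be told apart. The summed leukocyte markers given above were also higher in the knockdown libraries, and PTPRC was at 0 in 5 of the 6 libraries. Control library 3 had the highest leukocyte sum among the controls, 5.15 CPM, with CXCR2 at 0.239 and CXCR1 at 0.0798 CPM. Control library 2 had the lowest, 3.53 CPM, with CXCR2 at 0.688 and CXCR1 at 0 CPM. A large part of both sums came from CD14, which did not pass, at 3.03 CPM in control library 3 and 2.06 CPM in control library 2. The receptor counts are too few to order the controls, and nothing is read from this order. The part of leukocyte RNA in these levels was not tested.

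**Figure D2:**
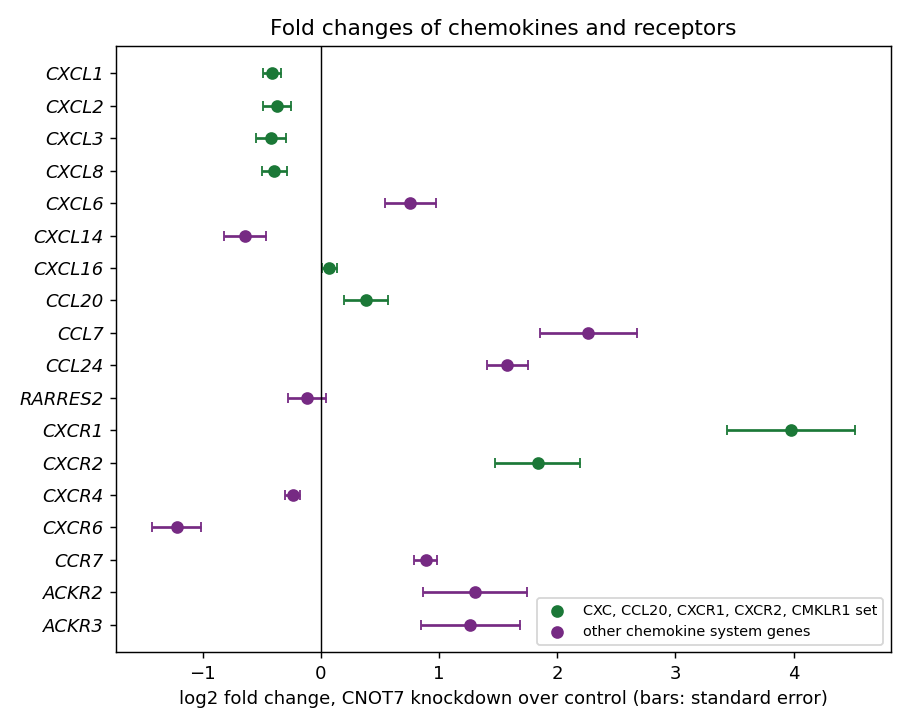
Log2 fold change of knockdown over control (x axis) with its standard error for a selection of tested chemokines, receptors and RARRES2 (y axis). The 10-gene set is in green and the other genes, RARRES2 among them, in purple. Of the set, CMKLR1 is left out because its control libraries held 1 count in all, and CXCL5 because it was not tested. The tested genes CX3CL1, CCL2, CCL26, CCL28, CCR1, CCR3, CCR10, ACKR4 and GPR1 are not shown. Of these only CX3CL1 passed the threshold, so the figure favours genes that moved. CXCL1, CXCL2, CXCL3 and CXCL8 lie together at about -0.4 and CXCR1 lies farthest to the right at 3.98.

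Among the other chemokines of the family, 9 of 38 were tested, of which 4 were higher and 1 lower, beside 13.3% and 11.9% of all tested genes. This list also counts the chemerin gene RARRES2, which was tested and did not pass. Their median log2 fold change was 0.38 against 0.00 for all tested genes. CXCL6, an ELR chemokine that binds CXCR1 and CXCR2, had 46, 32 and 30 counts in control and 73, 60 and 78 in knockdown libraries. Its groups did not overlap, and it rose by a log2 fold change of 0.76 (SE 0.217, adjusted p = 0.0164, edgeR), the opposite direction to CXCL1, CXCL2, CXCL3 and CXCL8. This call was lost without control library 3 (0.63) or knockdown library 1 (0.71). CCL7, a monocyte attractant, rose from 0.231 ± 0.104 to 1.12 ± 0.276 CPM (log2 fold change 2.26, adjusted p = 5.66e-04, edgeR). With 3, 6 and 8 control counts, CCL7 passed the filter on low counts through the knockdown libraries. That it differed follows in part from its being tested. CCL24, an eosinophil attractant, rose from 2.06 ± 0.469 to 6.14 ± 0.450 CPM (1.58, adjusted p = 3.66e-06, edgeR). CX3CL1, the membrane-bound fractalkine, also rose (0.54, adjusted p = 0.00468, edgeR), and CXCL14 fell by 0.64 on the log2 scale (adjusted p = 0.0127, edgeR), a call lost without knockdown library 1 (-0.54).

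Of 22 other chemokine receptors 10 were tested, with 3 higher and 2 lower, beside 13.3% and 11.9% of all tested genes. The chemerin receptor gene GPR1 is counted in this list, and it was tested and did not pass. Their median log2 fold change was 0.05. CCR7, which guides cells to lymph nodes, had 329, 319 and 287 counts in control and 698, 585 and 721 in knockdown libraries, a log2 fold change of 0.89 (adjusted p = 3.29e-06, edgeR). CXCR4, the CXCL12 receptor and the best expressed of those named here, fell by 0.24 on the log2 scale from 78.6 ± 1.96 to 66.7 ± 3.74 CPM (adjusted p = 0.00879, edgeR), and did not pass without control library 3 (-0.22). The atypical receptors ACKR2 (1.30, adjusted p = 0.0377, edgeR) and ACKR3 (1.26, adjusted p = 0.0344, edgeR) also passed at low counts, ACKR3 with groups that overlapped, and both calls were lost with cyclic loess scaling (1.09 and 1.07) and in several fits without 1 library, such as that without control library 3 (1.07 and 0.83). ACKR2 also did not pass with DESeq2 (1.31, adjusted p = 0.101) or with no filter on low counts (1.29, adjusted p = 0.0604, edgeR), and over its alternatives the adjusted p ran from 0.0283 to 0.166. With 6, 8 and 4 control counts, ACKR2 passed the filter through the knockdown libraries, so its difference follows in part from its being tested. The remaining call was the fall of CXCR6.

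Within 500 kb of the CXC cluster, 5 of 28 other genes were tested and 2 were higher, CXCL6 and RASSF6, a Ras-association domain gene (0.74, adjusted p = 0.0204, edgeR). RASSF6 did not pass with cyclic loess scaling (0.60) or without control library 2 (0.58), knockdown library 1 (0.67) or knockdown library 2 (0.64). No neighbour passed downwards, and the median of the 5 was 0.58. Among all tested genes 13.3% passed upwards and 11.9% downwards. MTHFD2L (0.09), EREG (-0.36) and AREG (0.58) did not pass. In position, CXCL6 lies between CXCL8 and CXCL1, both of which were lower.

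NF-κB and its inputs were read from lists of pathway genes. Of 24 tested genes for reception of interleukin-1, TNF, interleukin-17 and Toll-like ligands (27 listed), 6 were higher and 2 lower. This stands beside 13.3% and 11.9% of all tested genes, and the list median was -0.01. The higher genes included the flagellin receptor TLR5 (1.03, adjusted p = 0.00167, edgeR), the double-stranded RNA receptor TLR3 (0.62, adjusted p = 0.00306, edgeR), the kinase IRAK2 (0.49, adjusted p = 0.00463, edgeR) and the TNF receptor gene TNFRSF1B (0.35, adjusted p = 1.79e-04, edgeR). The 2 lower genes were RIPK1 (-0.27, adjusted p = 0.00671, edgeR) and TRAF6 (-0.22, adjusted p = 0.0490, edgeR), with no alternative fit read.

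Among 19 tested NF-κB subunits, kinases and inhibitors (20 listed), 1 was higher and 4 were lower, beside 13.3% and 11.9% of all tested genes. Their median was -0.03. NFKB2, the p100 subunit gene, rose by a log2 fold change of 0.26 (adjusted p = 0.00791, edgeR). CHUK, the kinase IKKα, fell by 0.31 (adjusted p = 0.00848, edgeR), the inhibitor gene NFKBIA by 0.18 (adjusted p = 0.0471, edgeR), NFKBIB by 0.24 (adjusted p = 0.0446, edgeR, with groups that overlapped and no alternative fit read) and NFKBIZ by 0.27 (adjusted p = 0.0274, edgeR), all on the log2 scale. NFKBIA lost its call in each fit without 1 library other than control library 3, at -0.21 to -0.15, and NFKBIZ without control library 2 (-0.20), control library 3 (-0.30) or knockdown library 1 (-0.26). RELA (-0.12, adjusted p = 0.147, edgeR) and NFKB1 (-0.03, adjusted p = 0.774, edgeR), which encode the p65 and p50 subunits, did not pass.

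Of 30 tested NF-κB target genes outside the chemokines (42 listed), 7 were higher and 13 lower, beside 13.3% and 11.9% of all tested genes. Their median was -0.12. CSF2, which encodes GM-CSF, fell from 12.1 ± 1.02 to 5.71 ± 0.305 CPM (log2 fold change -1.08, adjusted p = 2.41e-06, edgeR), and LCN2, the neutrophil-associated iron carrier lipocalin, from 38.1 ± 1.53 to 20.7 ± 0.960 CPM (-0.88, adjusted p = 1.97e-07, edgeR). Lymphotoxin alpha, LTA, was lower at low counts (-1.23, adjusted p = 0.0389, edgeR), and that call was lost with DESeq2 (-1.24) and without control library 1 (-0.90), control library 3 (-1.27), knockdown library 2 (-1.28) or knockdown library 3 (-0.93). CD40, the costimulatory receptor, rose from 1.37 ± 0.220 to 3.42 ± 0.211 CPM (1.31, adjusted p = 1.02e-04, edgeR). Targets thus moved in both directions. The log2 fold changes of CSF2 and LCN2 lay below those of CXCL1, CXCL2, CXCL3 and CXCL8, a difference that was not tested.

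AU-rich elements of the 3′ untranslated region (3′UTR) recruit proteins that bring CCR4-NOT to an mRNA, so the words ATTTA and TATTTAT were counted in the 3′UTR of 1 transcript per gene. The windows below, 30 bases each from the GENCODE release 29 transcripts, show the densest stretch in the 4 lower chemokines, with ATTTA in capitals.
CXCL1: tcttctATTTATTTATTTAttcattagttt
CXCL2: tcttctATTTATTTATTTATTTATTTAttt
CXCL3: ttctacttATTTAtgtATTTAtttttgaaa
CXCL8: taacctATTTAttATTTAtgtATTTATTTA

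CXCL1 held 5 ATTTA and 4 TATTTAT words in 706 bases, CXCL2 held 10 and 8 in 721, CXCL3 held 7 and 3 in 673, and CXCL8 held 9 and 4 in 1252. CXCL5 held 11 and 3 in 1995 bases, CXCL6 held 6 and 0 in 1119, and CCL20 held 3 and 1 in 451. CXCL16 held 1 and 0 in 977 bases, CXCR1 held 0 and 0 in 1314, CXCR2 held 2 and 0 in 1369, and CMKLR1 held 1 and 0 in 271. Per kb of 3′UTR, ATTTA stood at 1.02 in CXCL16, 0 in CXCR1, 1.46 in CXCR2 and 3.69 in CMKLR1. The median of tested protein-coding genes was 1.5 per kb, and 31.8% of those genes held any TATTTAT. Over 13510 tested protein-coding genes the median 3′UTR had 1063 bases and 2 ATTTA words, and 13.1% held at least 2 TATTTAT words, as CXCL1, CXCL2, CXCL3, CXCL5 and CXCL8 did. Across all genes the classes with and without the word had close values. The median log2 fold change was -0.01 with no TATTTAT and -0.02 with 2 or more, with 14.5% and 14.7% higher and 13.9% and 16.1% lower.

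Proteins that act on AU-rich or related elements were read from a list of 16 genes, all tested. Of these 1 was higher and 1 lower, beside 13.3% higher and 11.9% lower over all tested genes, and with the replicate block 4 were lower. The calls were AUH (0.32, adjusted p = 0.021, edgeR) and the RNA methylation reader gene YTHDF2 (-0.18, adjusted p = 0.0206, edgeR). AUH did not pass without control library 1 (0.28), control library 3 (0.28), knockdown library 1 (0.32) or knockdown library 2 (0.27), nor YTHDF2 without control library 1 (-0.18), control library 3 (-0.18) or knockdown library 3 (-0.17). ZFP36, which encodes tristetraprolin, had a log2 fold change of -0.16 (adjusted p = 0.287, edgeR), and ELAVL1, which encodes the stabilising protein HuR, of -0.09 (adjusted p = 0.252, edgeR).

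The genes whose log2 CPM followed CXCL1, the most abundant ELR chemokine, most closely over the 6 libraries were PSMA5, NMNAT2, URB2, IGF2BP2 and RRP36, with Pearson's r of 0.997 to 0.999. With 6 libraries in 2 groups this likeness is not particular to them, since 634 tested genes had an r over 0.95 with CXCL1 and share its libraries and scaling.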

How the data were processed

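Total RNA was extracted with TRIzol and made into libraries with a NEBNext Ultra kit. Per the labels and the submitters' processing notes, the authors used CASAVA 1.8, fastp, HISAT2 2.0.5, featureCounts 1.5.0-p3 and DESeq2 1.20.0 with GRCh38. The deposited values are raw counts per gene for 6 libraries. Strand setting and handling of shared reads are not given in the sources used here. All 58735 identifiers matched GENCODE release 29. Gene members, lists and tests were chosen with earlier results of these data known.

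Counts were fitted with edgeR 4.0.16 (filterByExpr, minimum count 10, TMM, quasi-likelihood test, Benjamini-Hochberg over all tested genes, threshold 0.05), group as the only term. Alternatives were DESeq2 1.42.0, other scalings and filters, a replicate block and 6 fits without 1 library. In counts simulated for this comparison, 100 of 100 genes planted at a log2 change of 1 were recovered on 17304 tested genes. Changes were planted only in well-counted genes, so recovery at low counts, or of changes under 1, was not tried. Exact intervals of 95% on summed counts used library sizes. Library depth, 23788451 to 29104872 counts, leaves genes of a few counts imprecise. Named genes were all 10 members, their partners, up to 4 genes per list with the largest change past the threshold and no overlap, and the 5 most like CXCL1. CX3CL1, RIPK1, TRAF6, NFKBIB, ITGAM, PTPRC, RELA, NFKB1, ZFP36, ELAVL1, RUFY4, CXCR2P1, the tested neighbours of CXCR2, EREG, AREG and MTHFD2L were added after their values were seen. So were GPR1 and the other leukocyte markers named. The result for 1 marker gene is not reported here. Promoters came from RefSeq (GRCh38.p14) and 3′UTRs from GENCODE transcripts, searched with Biopython 1.88 in Python.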

Additional observations from a re-analysis of the deposited data

How the results depend on the processing

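Over the 42 named genes tested and all alternatives, 497 values were recomputed: 435 kept their direction and side of the threshold, 60 kept only direction, 2 newly passed and 0 reversed. Scaling moved the median of all genes by under 0.1. Requiring 10 counts in every library left 0 of the 3 receptor genes to be called, since none was tested, and 1 other receptor higher. With no filter, 4 reception genes and 2 AU-rich binders were lower. Cyclic loess scaling left 1 cluster neighbour and 1 other receptor higher, with 1 reception gene and 0 AU-rich binders lower. With the replicate block, 3306 genes were lower against 2095 without it, as were 5 reception genes, 7 NF-κB subunits or inhibitors (2 higher) and 4 AU-rich binders. The labels share only replicate numbers (same-number correlations 0.12, 0.431 and 0.0183). Correlations between different numbers ran from -0.428 to 0.368, so the numbers were not read as pairs. The cause of these shifts was not tested.

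Leaving out 1 library at a time, the genes called lower ranged from 1367 (without control library 3) to 2219. The 10-gene set had 1 (without knockdown library 1) to 4 called lower, cluster neighbours 0 to 2 higher, other chemokines 0 to 1 lower, other receptors 1 to 3 higher and 1 to 2 lower, reception genes 1 to 3 lower, NF-κB subunits or inhibitors 1 to 4 lower, and AU-rich binders 0 to 1 higher and 0 to 2 lower. Fewer samples enter these fits. The log2 fold changes of CXCR1, CXCR2 and CMKLR1 ranged over 3.46 to 4.63, 1.57 to 2.44 and 4.48 to 6.95, the last without control library 2, where every control was at 0. As the 10 genes were chosen on this contrast, these values support nothing. Depth limits CXCL5, CXCR1 and CMKLR1, whose control counts were 10 or fewer per library.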
